A study of Mus musculus with 6 samples.

Results

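The 9 genes described here encode CXC chemokines and chemokine receptors, out of 40773 gene symbols in the table: the ligands Cxcl2, Cxcl3, Cxcl10 and Cxcl16, the receptors Ccr1, Ccr2, Cx3cr1 and Cxcr4, and the atypical receptor Ccrl2. They were taken by symbol, and all 9 were found. RNA was sequenced from RAW264.7 cells, an established mouse macrophage line with the genotype given as "plain", exposed to lipopolysaccharide (LPS), the Toll-like receptor 4 agonist from bacterial outer membranes, at 100 ng/mL for 24 h. In the second group 3A2, an antibody that neutralizes the membrane-bound metalloproteinase MMP14, was added at 50 µg/mL to the same dose of LPS. Each group held 3 biological replicates. Both groups received LPS, and cells without LPS or with a control antibody were not analysed here, so the levels below are those of stimulated cells only.

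Chemokines are small secreted proteins that guide leukocytes along their gradients. CXC chemokines carry a single residue between their first cysteines, and the receptors are seven-helix proteins that signal through inhibitory G proteins. Activated macrophages make CXC ligands through NF-κB, and the interferon-driven ligand Cxcl10 also through STAT and IRF factors. Cxcl16 is made as a transmembrane protein and is released by ADAM proteases. Several matrix metalloproteinases can trim chemokines.

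The neighbouring ligand genes Cxcl1, Cxcl2 and Cxcl3 are shown first because they share an NF-κB type element but had very different mRNA levels, and Cxcl10 because it carries the same element on the other strand. The lines give the 250 bases before the start of each gene, 5′ to 3′ on the strand of the gene, from RefSeq on GRCm38.p6. They lie at chr5:90890995-90891244 (Cxcl1, plus strand), chr5:90903649-90903898 (Cxcl2, plus strand), chr5:90785851-90786100 (Cxcl3, plus strand) and chr5:92348890-92349139 (Cxcl10, minus strand). Capitals mark the longest run the windows share (in Cxcl10, on the opposite strand) and the AP-1 motif TGANTCA.
Cxcl1: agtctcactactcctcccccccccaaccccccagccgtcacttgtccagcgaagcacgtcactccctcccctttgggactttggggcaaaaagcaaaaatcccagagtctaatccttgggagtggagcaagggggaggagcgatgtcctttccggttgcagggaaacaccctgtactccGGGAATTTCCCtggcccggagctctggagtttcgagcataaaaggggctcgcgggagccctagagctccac
Cxcl2: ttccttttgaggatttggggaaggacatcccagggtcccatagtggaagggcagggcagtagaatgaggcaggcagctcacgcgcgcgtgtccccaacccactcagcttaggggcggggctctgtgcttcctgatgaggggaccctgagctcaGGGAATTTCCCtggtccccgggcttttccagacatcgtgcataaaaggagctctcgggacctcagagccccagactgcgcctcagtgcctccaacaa
Cxcl3: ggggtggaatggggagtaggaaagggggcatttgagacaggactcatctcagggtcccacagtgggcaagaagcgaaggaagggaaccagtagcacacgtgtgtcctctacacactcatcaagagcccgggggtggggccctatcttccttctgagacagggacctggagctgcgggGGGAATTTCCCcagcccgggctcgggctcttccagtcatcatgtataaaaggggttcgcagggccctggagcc
Cxcl10: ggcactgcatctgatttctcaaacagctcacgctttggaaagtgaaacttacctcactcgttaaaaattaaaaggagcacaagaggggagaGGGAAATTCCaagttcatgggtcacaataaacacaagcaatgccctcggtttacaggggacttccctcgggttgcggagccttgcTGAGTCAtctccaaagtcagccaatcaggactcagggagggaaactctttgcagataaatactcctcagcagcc

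The longest run common to the Cxcl1, Cxcl2 and Cxcl3 windows was the 11 bases GGGAATTTCCC, which has the form of a κB site. It lay from -71 to -61 in Cxcl1, from -97 to -87 in Cxcl2 and from -73 to -63 in Cxcl3, where -1 is the last base before the gene start. On both strands it occurred in 14 of 32851 RefSeq windows of this length (0.0426%). The longest run common to all 4 windows on either strand was its last 10 bases, GGAATTTCCC, which stood in Cxcl10 as GGGAAATTCC from -159 to -150. That run occurred in 32 windows (0.0974%). TGANTCA, found in 6.75% of windows, lay from -74 to -68 in Cxcl10. The TATA box TATAAA, found in 12.4%, lay from -30 to -25 in both Cxcl3 and Cxcr4. Of the receptors, Ccr1, Ccr2, Cx3cr1, Cxcr4 and Ccrl2 had a window in the RefSeq table, and Cxcr4 was the only one with a match to any motif searched. The shared runs were read off these windows after the fact, so their rarity is no test. Looser forms of NF-κB and interferon-response elements are not reported here. A match describes these letters and not a bound site.

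Depth was similar in the 6 libraries, at 6060732 to 7432553 counts, so that a level of 1 CPM (the count scaled to a common library size) stood for 5.99 to 7.47 counts. Agreement within a group was uneven, as chi-square per degree of freedom (higher is a larger disagreement). Pairs of LPS libraries stood at 3.47 to 8.59. With 3A2 the pairs stood at 6.63, 8.67 and 23.4, the last between replicates 2 and 3. Of 11498 genes that passed the filter on low counts, 0 (0%) differed between the groups with edgeR (quasi-likelihood F test, Benjamini-Hochberg adjusted p below 0.05), and 749 (6.51%) had an unadjusted p under 0.05. DESeq2 called 1 gene and limma-voom 0. Mitochondrial mRNAs, as a mean log2 distance from the mean of all libraries, stood at -0.208 to -0.043 with LPS and at 0.114, -0.139 and 0.45 in LPS plus 3A2 replicates 1, 2 and 3. The macrophage lysozyme gene Lyz2 was high in both groups, at 4337 ± 69.5 CPM in LPS libraries and 3780 ± 125 CPM in those with 3A2 (SD, n = 3). Of 8 macrophage markers tested 7 lay below 0 (median log2 fold change -0.10), with 0 called by edgeR. The summed level of all 9 was 6047 to 6146 CPM with LPS and 5221 to 5573 CPM with 3A2. Most of that sum was Lyz2, so it mainly follows that gene. Lymphocyte markers summed to at most 0.669 CPM, with 6 of 8 at 0 counts. Neutrophil markers summed to 5.85 to 7.68 CPM over all libraries, nearly all of it S100a8, with Ly6g, S100a9, Ngp and Ltf at 0 counts. Fibroblast and endothelial markers summed to at most 4.67 CPM.

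Of the 9 genes 8 were tested and 0 called, while Cxcr4 lay below the filter. By edgeR 2 of the 8 had an unadjusted p under 0.05, Ccr1 higher (beside 3.43% of all genes) and Cx3cr1 lower (beside 3.09%) with 3A2, and both had an adjusted p of 0.719. DESeq2 and limma-voom called 0 of the 8 as well. The groups did not overlap for 3 of the 8 genes, against 1414 of all genes tested (12.3%). With 3A2, Ccr1 lay higher (1 of 8, beside 5.84% of all genes), and Cx3cr1 and Cxcl16 lay lower (2 of 8, beside 6.46%). The median log2 fold change of the 8 was 0.054, beside 0.0017 over all genes, with 5 above 0 and 3 below. The other ligands, Cxcl2, Cxcl3 and Cxcl10, overlapped between the groups.

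**Figure D1:**
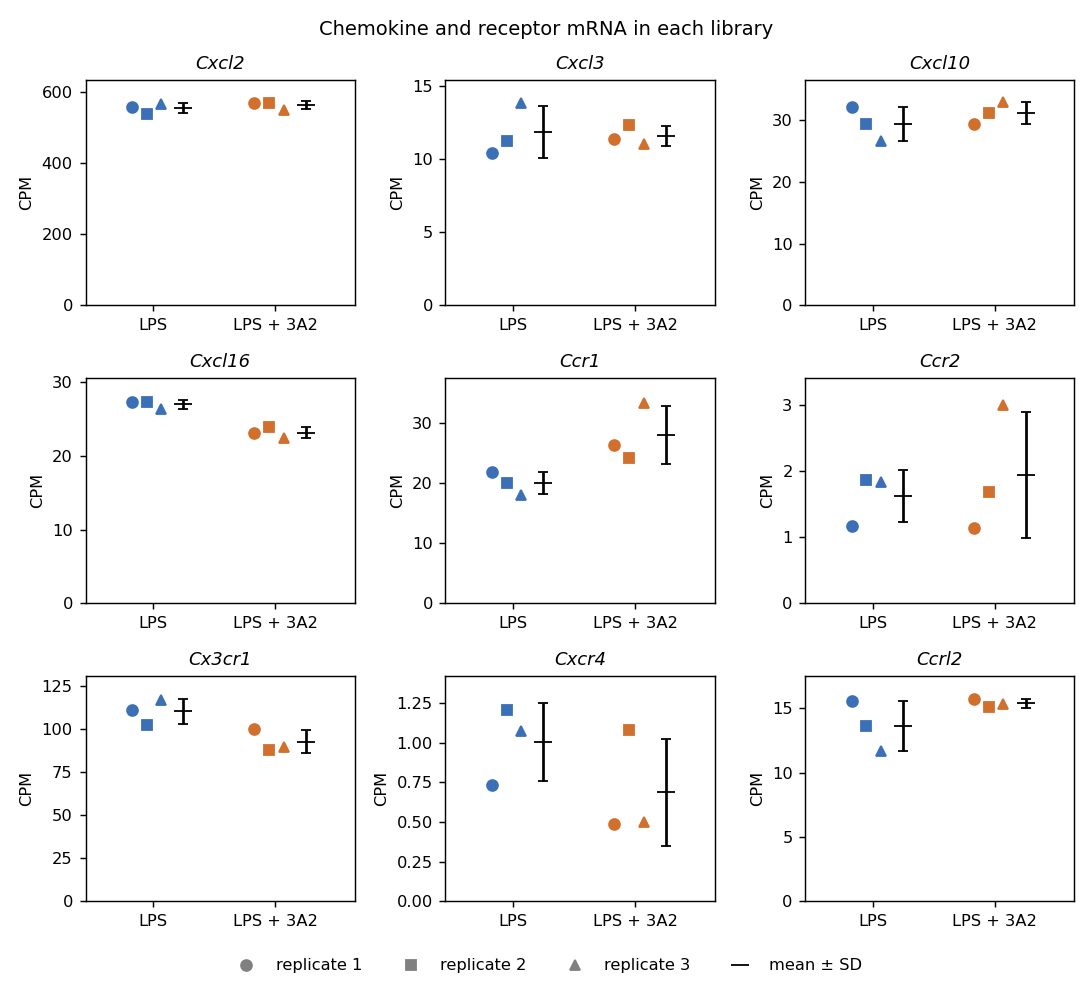
Normalised mRNA level (CPM, each axis from 0) of the 9 genes in every library. Symbols mark the replicate number, colours the group, and the black bars the mean ± SD of 3 libraries. The groups separate for Cxcl16, Ccr1 and Cx3cr1 and overlap for the other genes.

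Cxcl2 encodes the neutrophil-attracting ligand also known as MIP-2, and had the highest level of the 9 genes. Its level was 559, 539 and 567 CPM in the LPS libraries and 571, 571 and 550 CPM in those with 3A2. The groups overlapped and lay within a few percent of each other, with means of 555 ± 14.3 and 564 ± 11.9 CPM (SD, n = 3). The fold change of 3A2 over LPS was 1.02 (95% interval 0.934 to 1.11, edgeR adjusted p = 0.95). Behind each value stood 3295 to 4029 counts, and the spread of the LPS libraries (2.58% of the mean) was near the 1.61% that counting alone gives.

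Cxcl3, a close relative that acts on the same receptor, CXCR2, stood far below Cxcl2. It measured 10.4, 11.2 and 13.8 CPM with LPS and 11.4, 12.3 and 11 CPM with 3A2, and the antibody group lay inside the range of the LPS group. The fold change was 0.982 (0.777 to 1.24, edgeR adjusted p = 0.98). Per kb of transcript, using the first listed GENCODE transcript of each gene, Cxcl2 mRNA was 43.6 ± 5.85 times that of Cxcl3 with LPS and 44.7 ± 1.98 times with 3A2 (SD, n = 3). The ratio ran from 37.6 to 49.3 over the LPS libraries and from 42.5 to 46 with 3A2. With the longest coding transcript of each gene it was 26 ± 3.49 with LPS and 26.7 ± 1.18 with 3A2 (SD, n = 3), so its size depends on the transcript taken. Cxcl1, named here after its values were seen and the third gene of this group, had 1 count in LPS replicate 1, 1 count in LPS plus 3A2 replicate 2, and 0 in the other libraries, which allows up to 0.501 CPM in the shallowest of those. Cxcl1, Cxcl2 and Cxcl3 all carry GGGAATTTCCC in the windows printed above. Transcripts of Cxcl2 share 126 stretches of 50 bases (5.84%) with those of another gene of the family, and transcripts of Cxcl3 also 126 (3.51%). Which gene of the family shares each stretch was not separated. How reads in those stretches were assigned is not given in the sources used here, so the low level of Cxcl3 carries that uncertainty.

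Cxcl10, the interferon-inducible ligand of CXCR3, measured 32.1, 29.3 and 26.6 CPM with LPS and 29.4, 31.1 and 32.9 CPM with 3A2. LPS replicate 3 was the lowest of all libraries, and the groups overlapped. The fold change was 1.06 (0.904 to 1.25, edgeR adjusted p = 0.898). Its receptor gene Cxcr3 was present in the same cells, with means of 9.73 ± 0.483 CPM (LPS) and 8.16 ± 1.76 CPM (3A2) over 3 libraries each (SD), a fold change of 0.841 (0.642 to 1.1). Cxcl11, another ligand of CXCR3, measured 3.08, 5.22 and 6.14 CPM with LPS and 7.79, 6.93 and 5.51 CPM with 3A2, or 1.4-fold (0.975 to 2.02). Those groups overlapped, and LPS replicate 1 was the lowest. Cxcl9, also a CXCR3 ligand, had a single count in all libraries together.

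Cxcl16 encodes the transmembrane ligand of CXCR6, which also acts as a scavenger receptor for oxidized lipoproteins. It measured 27.2, 27.3 and 26.3 CPM with LPS and 23, 23.9 and 22.4 CPM with 3A2. All 3 antibody libraries lay below all 3 LPS libraries. The fold change was 0.858 (0.729 to 1.01), and the edgeR adjusted p was 0.757. Its libraries lay closer together than counting noise gives, with a spread of 2.18% of the mean with LPS where 7.31% comes from counting alone. Adam10, a sheddase of CXCL16 that was named after its values were seen, averaged 111 ± 4.49 CPM (LPS) and 128 ± 10.8 CPM (3A2) (SD, n = 3), a fold change of 1.15 (1.03 to 1.28, edgeR adjusted p = 0.719). The CXCL16 receptor gene Cxcr6 had 0 counts in all 6 libraries, which allows up to 0.401 to 0.501 CPM in a library. That limit covers counting error only.

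Ccr1, a receptor for CCL3 and CCL5 on monocytes and macrophages, had the largest log2 difference of the 8 tested genes. It measured 21.8, 20.1 and 18.1 CPM with LPS and 26.5, 24.2 and 33.4 CPM with 3A2. Every antibody library lay above every LPS library, and LPS plus 3A2 replicate 3 was the highest. The means were 20 ± 1.86 and 28 ± 4.8 CPM (SD, n = 3), which is 1.4-fold higher with 3A2 (1.15 to 1.69 at 95%). The log2 fold change of 0.48 (SE 0.134) was larger in size than that of 97.1% of genes tested, and Ccr1 ranked 27 by edgeR p, yet its adjusted p was 0.719. Over the alternatives run that p lay between 0.0596, without LPS plus 3A2 replicate 2, and 0.996. LPS plus 3A2 replicate 3 was highest and LPS replicate 3 lowest in both Ccr1 and mitochondrial mRNA. LPS plus 3A2 replicate 2 departed from that order, with Ccr1 above all LPS libraries (24.2 CPM) at a mitochondrial level (-0.139) below that of LPS replicate 1 (-0.043). With that mitochondrial level as a covariate, an alternative added after the data were seen, the log2 fold change of Ccr1 was 0.23 (SE 0.141).

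Cx3cr1, the fractalkine receptor that marks monocytes and many tissue macrophages, had the highest level per kb of the 5 receptor genes in both groups. Its level was 111, 103 and 117 CPM with LPS and 100.3, 88 and 89.3 CPM with 3A2. The groups did not overlap, though LPS replicate 2 and LPS plus 3A2 replicate 1 lay close together. The means were 110.2 ± 7.29 and 92.6 ± 6.73 CPM (SD, n = 3), a fold change of 0.84 (0.749 to 0.942, edgeR adjusted p = 0.719). With mitochondrial mRNA as a covariate the log2 fold change stayed at -0.25, as it was without it. Of the 8 macrophage markers tested, 3 also had all antibody libraries below all LPS libraries, beside 6.46% of all genes. They were Lyz2 (0.871-fold), Csf1r (0.878-fold, the receptor for macrophage colony-stimulating factor) and Itgam (0.942-fold, an integrin of myeloid cells). The other 5 overlapped, at 0.864-fold (Spi1) to 1.03-fold (Adgre1). All but Lyz2 were named after their values were seen, and the part of these markers in the Cx3cr1 difference was not tested. In bulk RNA, fewer cells with a transcript and less of it per cell cannot be told apart. The ligand gene Cx3cl1 had 1, 0 and 0 counts with LPS and 0, 0 and 2 with 3A2. Per kb, Cx3cr1 mRNA was 4.19 ± 0.597 times that of Ccr1 with LPS and 2.54 ± 0.458 times with 3A2 (SD, n = 3). The lowest LPS ratio was 3.83 and the highest with 3A2 was 2.86. Every antibody library lay lower for Cx3cr1 and higher for Ccr1, so the ratios had to separate and this adds no further result. With the longest coding transcript the mean ratios were 3.502 (LPS) and 2.125 (3A2).

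**Figure D2:**
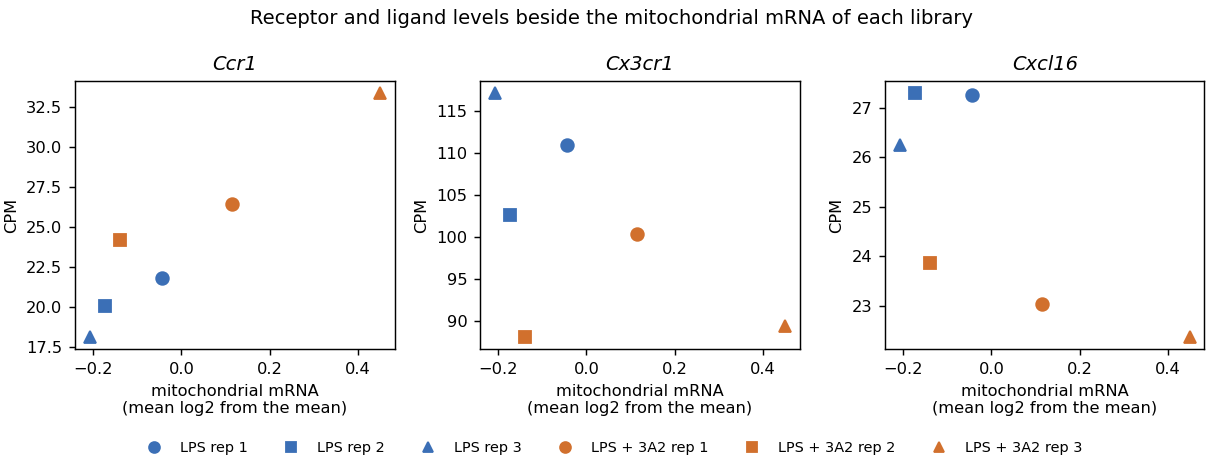
CPM of Ccr1, Cx3cr1 and Cxcl16 (vertical, axes not from 0) against the mitochondrial mRNA level of each library (horizontal, mean log2 distance from the mean of 6 libraries). Ccr1 and mitochondrial mRNA are both highest in LPS plus 3A2 replicate 3 and both lowest in LPS replicate 3. The mitochondrial level of LPS plus 3A2 replicate 2 (-0.139) lies within the range of the LPS libraries. The groups do not overlap for these genes, so any LPS library differs from any antibody library in the same direction. The cause was not tested.

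Ccr2 and Cxcr4 were close to the limit of detection. Ccr2, the CCL2 receptor of inflammatory monocytes, had 8, 14 and 12 counts with LPS and 7, 11 and 18 with 3A2, and the groups overlapped. The fold change of 1.18 had an interval of 0.647 to 2.16, so no difference was detectable at this depth. Its direction rested on LPS plus 3A2 replicate 3, since without that library the log2 fold change was -0.20. Transcripts of Ccr2 share 110 stretches of 50 bases (1.63%) with another gene of the family, and how such reads were assigned is not given. Cxcr4, the CXCL12 receptor that retains cells in bone marrow, had 5, 9 and 7 counts with LPS and 3, 7 and 3 with 3A2. Pooled, the LPS libraries stood at 1.01 CPM (95% exact Poisson bounds 0.624 to 1.54) and those with 3A2 at 0.697 CPM (0.371 to 1.19), where the bounds cover counting error only. The ratio was 0.691 (0.318 to 1.45). Permuting the 3 against 3 libraries exactly, two-sided, p was 0.3, and 0.1 is the lowest p this design can reach. The ligand gene Cxcl12 had 0 counts in every library.

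Ccrl2, an atypical receptor that binds chemerin without signalling, measured 15.5, 13.6 and 11.7 CPM with LPS and 15.7, 15.1 and 15.4 CPM with 3A2. The antibody libraries lay close together, at the upper end of the LPS range, and LPS replicate 1 overlapped them. The fold change was 1.13 (0.913 to 1.39, edgeR adjusted p = 0.84). Without LPS replicate 3 the log2 fold change was 0.079, against 0.18 with all libraries. LPS replicate 3 was thus the lowest library for Ccr1, Cxcl10 and Ccrl2, and the highest for Cxcl3 and Cx3cr1.

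**Figure D3:**
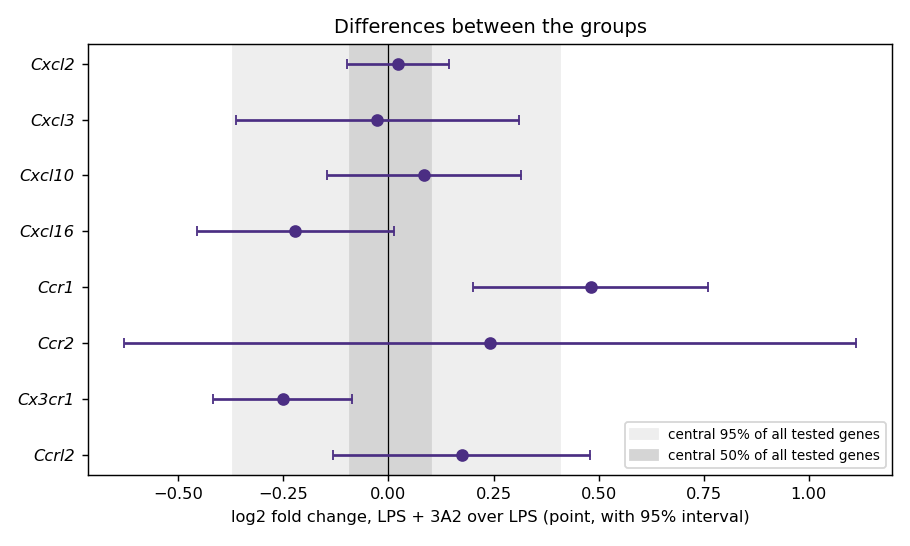
Log2 fold change of LPS plus 3A2 over LPS with its 95% interval for the 8 tested genes, over bands that hold the central 50% and 95% of the values of all 11498 tested genes. Only the intervals of Ccr1 and Cx3cr1 exclude 0, and Ccr1 (0.48) is the only point beyond the wider band.

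**Figure D4:**
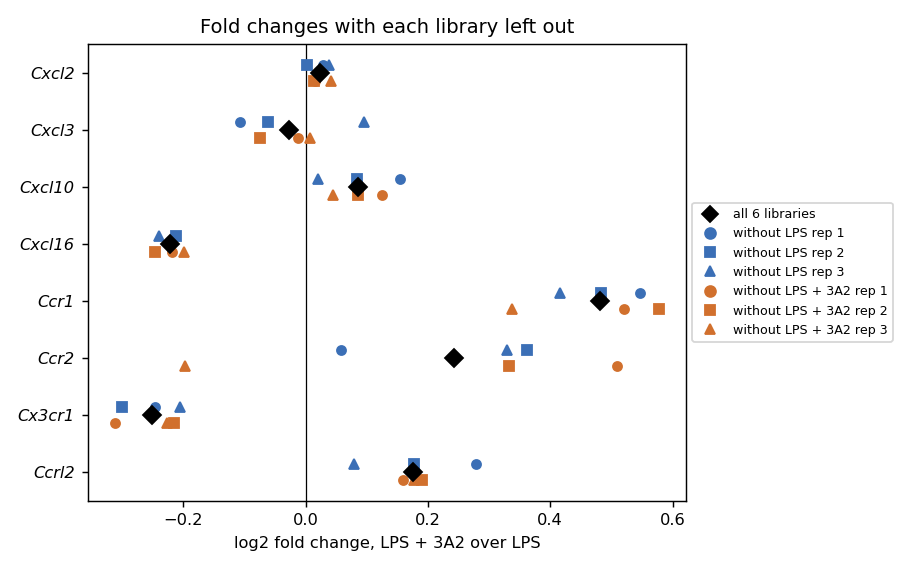
Log2 fold change of each gene with all 6 libraries (black diamond) and with each library left out in turn (symbols for the replicate, colours for the group). Cxcl3 and Ccr2 change side, while Cxcl16, Ccr1 and Cx3cr1 keep theirs, with Ccr1 between 0.34 and 0.58.

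Ordered by level per kb, Cxcl2 stood first at 500.4 CPM per kb with LPS and 508 with 3A2, above all others in every library. With LPS, Cx3cr1 (29.4) and Cxcl10 (26.8) followed and their ranges overlapped. Cxcl3 (11.6), Cxcl16 (9.98), Ccr1 (7.06) and Ccrl2 (5.54) came next, each with all libraries above those of the next gene. Cxcr4 (0.556) and Ccr2 (0.543) came last and overlapped. With 3A2 the order of Cxcl10 (28.4) and Cx3cr1 (24.7) was the reverse, without overlap, and Ccr1 (9.88) stood between Cxcl3 (11.4) and Cxcl16 (8.56) with ranges that overlapped both. Ccr2 (0.649) and Cxcr4 (0.381) were again last and overlapped. With the longest coding transcript Cxcl2 was still first, at 299 CPM per kb with LPS and 303 with 3A2, but 3 of these statements did not hold. Cxcl10 (23) and Cx3cr1 (20.6) then overlapped with 3A2, Cxcr4 (0.556) lay above Ccr2 (0.284) without overlap with LPS, and with 3A2 Cxcr4 (0.381) came before Ccr2 (0.34), still overlapping.

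**Figure D5:**
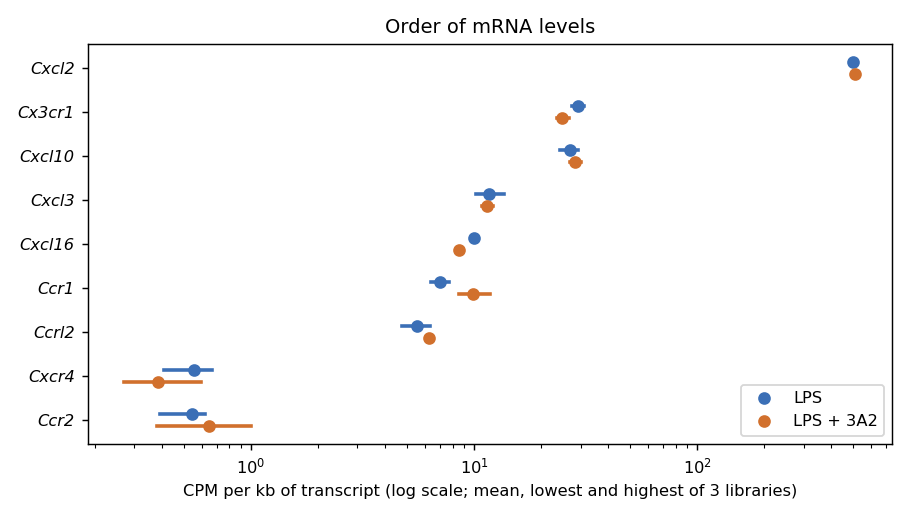
mRNA level in CPM per kb of transcript (log axis) for the 9 genes, ordered by the LPS group. Points are means and lines run from the lowest to the highest of 3 libraries. Cxcl2 stands far above the rest, and Cxcr4 and Ccr2 far below.

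Most other genes of the family had few or no counts. Of 13 other CXC, CX3C and XC ligands 2 were tested, Cxcl11 and Pf4, and 6 had 0 counts in all libraries. Pf4, platelet factor 4, averaged 17.1 ± 0.786 CPM (LPS) and 17.9 ± 3.81 CPM (3A2) (SD, n = 3), a fold change of 1.05 (0.845 to 1.3). Of 21 other receptors only Cxcr3 was tested and 11 had 0 counts. Cxcr5, the receptor of follicular lymphocytes, was just detected, at 0.874 ± 0.203 and 1.02 ± 0.53 CPM (SD, n = 3).

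Of 9 CC ligand genes listed with Ccr1 and Ccr2, 7 were tested, 6 above 0 and 1 below (median log2 fold change 0.099), with 0 called by edgeR. Their summed level was 4636 to 4821 CPM with LPS and 5039 to 5054 CPM with 3A2, nearly all of it Ccl3, Ccl9 and Ccl4. The groups did not overlap for 2 of the 7, Ccl4 and Ccl9, both higher with 3A2 (beside 5.84% of all genes). Ccl9 was named after its values were seen. The other tested genes of the list, Ccl3 among them, overlapped. At an unadjusted edgeR p under 0.05, 2 of the 7 were higher (beside 3.43% of all genes) and 0 lower (beside 3.09%). These were Ccl4 and Ccl2 (1.2-fold, 1.02 to 1.42), and Ccl2 was also named after its values were seen. Ccl3, a ligand of Ccr1, averaged 2707 ± 76.2 CPM (LPS) and 2861 ± 90.2 CPM (3A2) over 3 libraries each (SD). Ccl4, a chemokine that attracts monocytes and T cells, had the smallest p of the list, at 1.12-fold (1.03 to 1.22, edgeR adjusted p = 0.719).

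Genes of signalling and desensitisation below chemokine receptors lay on both sides of 0. Of 31 tested, 13 were above and 18 below (median log2 fold change -0.052), with 0 called by edgeR. The groups did not overlap for 4 that were higher (beside 5.84% of all genes) and 7 that were lower (beside 6.46%). At an unadjusted p under 0.05, 4 were higher, beside 3.43% of all genes, and 4 lower, beside 3.09%. Those higher were Gng10, a G protein gamma subunit (1.27-fold), and Rgs1, Rgs2 and Rgs16 (1.22-, 1.46- and 1.15-fold), regulators that speed the shut-off of G protein signals. Those lower were Grk5 (0.778-fold) and Arrb2 (0.894-fold), which desensitise receptors, and the phospholipases Plcb2 (0.889-fold) and Plcb3 (0.866-fold). All but Gng10 were named after their values were seen. Gng10 measured 35.7, 36 and 32.4 CPM with LPS and 43, 42 and 47.9 CPM with 3A2 without overlap, at an edgeR adjusted p of 0.719. Gnai2, with the highest CPM of the list and the main inhibitory G protein of leukocytes, measured 455 ± 5.99 and 415 ± 34.7 CPM (SD, n = 3), or 0.913-fold (0.83 to 1).

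Of the proteases known to shed or trim these ligands, 5 of 9 were tested, 3 above 0 and 2 below, with 0 called by edgeR. Mmp12, which trims neutrophil-attracting CXC ligands, averaged 47.8 ± 2.33 CPM (LPS) and 67.8 ± 8.07 CPM (3A2) (SD, n = 3), a fold change of 1.42 (1.23 to 1.63, edgeR adjusted p = 0.295). No gene tested had a lower adjusted p. For Mmp12 and Adam10 all antibody libraries lay above all LPS libraries (2 of the 5, beside 5.84% of all genes). Adam17, with the highest CPM, stood at 1.01-fold (0.908 to 1.12). Dpp4, which trims CXCL10, had 0 counts in all libraries. Mmp14, which encodes the target of 3A2 and was named after its values were seen, lay below the filter and was not tested. It had 1, 5 and 0 counts with LPS and 2, 6 and 3 with 3A2. Of 18 transcription factors that act on the ligand genes, 7 lay above 0 and 11 below, with a median of -0.020 and 0 called by edgeR. Cebpb, an LPS-induced factor, had the smallest p at 0.877-fold (0.79 to 0.973), and Irf7, with the highest CPM, stood at 1.02-fold (0.935 to 1.12).

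Likeness to other genes was described for the ligand and the receptor with the smallest p, by Pearson's r of log2 CPM over the 6 libraries. Ccr1 was most like Itgav (r = 0.99), Traf6 (0.989) and Ube2v2 (0.989), and 326 genes exceeded 0.9. Cxcl16 was most like Acd (r = 0.988), Gtpbp2 (0.987) and Asxl1 (0.984), with 164 genes over 0.9. The points share libraries, depth and group, and these values are a description only.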

How the data were processed

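The data are raw read counts for each gene symbol, deposited by the authors as a single table in which every library has its own column. Per the labels' protocols, rRNA-depleted, strand-specific paired-end libraries were made from TRIzol-extracted RNA. HISAT2 and edgeR are named, per the submitters' processing notes, without version or role. Those notes give the human build GRCh38, while 39282 of 40773 symbols match mouse RefSeq genes. How reads were counted, on which annotation and strand, is not given in the sources used here. Overlap with other genes, on either strand, was checked in RefSeq. Art3, Zmynd15 and Gm33858 overlap Cxcl10, Cxcl16 and Cx3cr1 and hold 37, 74 and 77 counts in all, beside 1191, 992 and 4012. Entries in 3 unnamed columns were not used.

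Sample titles gave group and replicate number. In edgeR 4.0.16 under R 4.3.3, filterByExpr and TMM scaling preceded a two-sided quasi-likelihood F test (robust option), with Benjamini-Hochberg adjustment over all genes and a threshold of 0.05. CPM values use the TMM-scaled totals, and intervals are at 95%. For a gene with 0 counts the upper limit was set at 3 counts. Cxcr4, below the filter, was fitted separately. Lengths came from GENCODE M21. The fit was tested on simulated data with 200 changed genes of 11498, where 94.9% of 2-fold and 75.2% of 1.5-fold changes were recovered. Every simulated gene had the same spread between replicates, and libraries of a group differed only in depth, so these rates need not hold for the real libraries. Named genes were all members and, per list, the smallest p and the highest level. Members and lists were chosen with earlier results of these data known. Alternatives used DESeq2 1.42.0, limma 3.58.1, other scalings, filters and thresholds, the replicate block, each library left out and, added later, a mitochondrial covariate and the longest coding transcript for levels per kb.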

Additional observations from a re-analysis of the deposited data

How the results depend on the processing

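No member was called under any alternative run, and Cxcl2, Cxcl10, Cxcl16, Ccr1, Cx3cr1 and Ccrl2 kept their direction in all of them. The log2 fold change of Cxcl3 ranged from -0.11 to 0.095 with a library left out, changing sign without LPS replicate 3 (0.095) or LPS plus 3A2 replicate 3 (0.0071), and was 0.089 when the mitochondrial covariate was fitted. That of Ccr2 ranged from -0.20 (no LPS plus 3A2 replicate 3) to 0.51, and was -0.15 under the covariate. With the covariate Ccr1 stood at 0.23 in place of 0.48. Over all genes 0 were called in the main setting, 16 without a filter on low counts, 1 with DESeq2, 1 with the replicate block and 32 with the covariate, and 0 to 25 with a library left out, the 25 without LPS plus 3A2 replicate 2. The cause was not tested. Members whose groups did not overlap numbered 3 to 5 of 8 with a library left out, where the share over all genes ran from 19.8% to 31.4%. The 5 came without LPS replicate 1, beside 22.8% of all genes. Without LPS plus 3A2 replicate 3 there were 4, beside 21.5%. Without LPS plus 3A2 replicate 2 there were 3, beside 31.4%. Deviations of libraries with the same replicate number correlated at -0.0065, 0.032 and -0.156, so the number was not taken as a pairing. The replicate block gave Ccr1 a log2 fold change of 0.47 (edgeR adjusted p = 0.914). Depth limits Ccr2 and Cxcr4.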

Other observations

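Cxcr2, the receptor of Cxcl2 and Cxcl3 and a neutrophil gene, had 0, 0 and 2 counts with LPS and 1, 0 and 6 with 3A2. Ppbp, a platelet CXC ligand, had 2, 2 and 5 counts with LPS and 0, 3 and 0 with 3A2. Both lay below the filter, and neither was tested.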
